A study of Mus musculus with 15 samples.

Results

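Calcium enters, is stored in and leaves macrophages and osteoclasts through a small set of membrane proteins, and 10 of their genes are described here across all samples of a mouse RNA-seq series. They are *Calcr*, *Orai1*, *Stim1*, *Itpr1*, *Itpr2*, *Itpr3*, *Atp2a2*, *Atp2b1*, *Atp2b4* and *Slc8a1*. The genes were listed by name and looked up by gene symbol in the expression table, which held all 10 among 20089 complete gene entries. All samples were bone marrow-derived macrophages (BMDMs) of wild-type C57BL/6 mice, cultured in macrophage colony-stimulating factor (M-CSF, 50 ng/mL and 4 days in the methods for such cells, 3 days in the design text). There were 5 groups of 3 samples. Control cells had M-CSF alone, and the other groups had M-CSF with receptor activator of NF-κB ligand (RANKL, 100 ng/mL), which turns these cells into bone-resorbing osteoclasts, or with lipopolysaccharide (LPS, 100 ng/mL), a bacterial trigger of inflammation. Each stimulus was given for 4 h or for 72 h (3 days). The labels give no time in culture for the control beyond M-CSF. Time in culture and stimulus thus cannot be told apart at 72 h against control or between 4 h and 72 h. RANKL and LPS, in contrast, were compared at equal times. The methods give an age of 4 to 8 weeks for the donor mice of such cultures and no sex, and the labels do not say whether replicates came from separate animals or cultures, so p-values measure the spread between these samples.

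In osteoclast precursors, phospholipase C makes inositol trisphosphate (IP3), which opens IP3 receptors (the ITPR proteins) on the endoplasmic reticulum and lets stored calcium out. STIM1 senses the emptied store and opens the ORAI1 channel in the plasma membrane, and the resulting calcium oscillations activate calcineurin and the transcription factor NFATc1, the main driver of osteoclast genes. SERCA pumps (*Atp2a2*) refill the store, whereas plasma membrane calcium ATPases (*Atp2b1*, *Atp2b4*) and the sodium-calcium exchanger (*Slc8a1*) move calcium out of the cell. The calcitonin receptor (*Calcr*) is a surface receptor of mature osteoclasts through which the hormone calcitonin stops resorption.

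Since *Calcr*, *Atp2b4* and *Itpr3* were the 3 members higher at RANKL 72 h, their promoter windows are shown, each with 250 bases before and 50 bases from the annotated start on, taken from RefSeq on GRCm38.p6 and read 5′ to 3′ on the strand of the gene. Capitals mark the letters of an NFAT core, GGAAA on either strand. The windows are chr6:3764664-3764963 and chr6:3763574-3763873 (minus strand) for *Calcr*, chr1:133753698-133753997 (minus strand) for *Atp2b4* and chr17:27057054-27057353 (plus strand) for *Itpr3*.
Calcr, first start: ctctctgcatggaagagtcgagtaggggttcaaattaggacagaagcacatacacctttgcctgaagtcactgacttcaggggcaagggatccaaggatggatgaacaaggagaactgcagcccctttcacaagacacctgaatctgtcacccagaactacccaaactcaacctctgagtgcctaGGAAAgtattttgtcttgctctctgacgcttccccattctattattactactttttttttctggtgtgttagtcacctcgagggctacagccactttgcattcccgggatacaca
Calcr, second start: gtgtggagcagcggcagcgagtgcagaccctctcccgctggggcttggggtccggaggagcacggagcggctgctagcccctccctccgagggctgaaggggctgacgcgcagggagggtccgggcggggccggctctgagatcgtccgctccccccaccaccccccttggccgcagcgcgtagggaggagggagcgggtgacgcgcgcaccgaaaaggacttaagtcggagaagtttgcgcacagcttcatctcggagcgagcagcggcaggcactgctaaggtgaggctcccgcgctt
Atp2b4: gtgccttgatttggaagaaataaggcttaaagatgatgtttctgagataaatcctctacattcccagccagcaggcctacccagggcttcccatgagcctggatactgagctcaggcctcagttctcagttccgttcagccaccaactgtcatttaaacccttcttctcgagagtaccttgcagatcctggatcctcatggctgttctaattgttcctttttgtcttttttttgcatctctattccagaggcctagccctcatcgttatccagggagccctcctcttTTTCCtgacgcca
Itpr3: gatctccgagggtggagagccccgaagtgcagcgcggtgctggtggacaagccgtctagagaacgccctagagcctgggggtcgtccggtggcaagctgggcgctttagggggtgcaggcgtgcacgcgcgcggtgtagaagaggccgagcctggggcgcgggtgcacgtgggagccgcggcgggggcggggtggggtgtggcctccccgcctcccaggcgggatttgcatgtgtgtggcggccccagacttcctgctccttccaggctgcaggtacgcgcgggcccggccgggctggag
The core was found at position -65 from the first *Calcr* start, at position 38 from the *Atp2b4* start on, and in neither the second *Calcr* window nor that of *Itpr3*. Of 10 windows of 8 members, 4 held GGAAA, beside 61.3% of 32851 mouse promoter windows of the same length. An AP-1 site (TGANTCA) was in none of the 10 windows and in 7.81% of all, and a PU.1 core (GAGGAA, whose last letters overlap GGAA of the NFAT core) was in none of the 10 and in 28.3% of all. These matches are a description of letters and not of binding. The *Atp2b4* window belongs to an internal start, 47294 bases inside the 5′ end of the gene in GENCODE M21, and the second *Calcr* start lies 1091 bases inside, whereas the first *Calcr* start and that of *Itpr3* lie at or within 1 base of that end. The first *Calcr* window and that of *Atp2b4* held 47.3% and 47.7% G and C, against 70% in the second *Calcr* window and 72.3% in that of *Itpr3*.

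Expression was deposited as FPKM, fragments scaled by exon length and by sequencing depth, a level per length that allows genes to be compared with each other. The samples held 18306184 to 20330207 fragments on the listed genes. To be called changed, a gene needed a fold change beyond 1.5 upwards or 0.66 downwards together with a Benjamini-Hochberg adjusted p under 0.05 from limma over 11743 genes. Fold changes are on the log2(FPKM + 0.1) scale, where those of weakly expressed genes come out too small. The RANKL 72 h label was checked by *Nfatc1*, *Ctsk* (cathepsin K, the collagen-degrading protease of osteoclasts) and *Dcstamp* (needed for cell fusion). They had 44.2 ± 18.5, 1060 ± 568 and 41.8 ± 25.7 FPKM there against 7.74 ± 1.54, 24.0 ± 8.73 and 0.258 ± 0.237 FPKM in control (SD, n = 3 each). The LPS 4 h label was checked by *Il6*, *Tnf* and *Nos2*, which encode inflammatory products of macrophages. These had 272 ± 8.93, 1970 ± 455 and 347 ± 91.4 FPKM at LPS 4 h against 0.559 ± 0.208, 18.6 ± 4.28 and 0.813 ± 0.669 FPKM in control. At LPS 72 h, 6 of 8 LPS response markers were called higher than in control and 0 lower (beside 13% and 14.4% of all genes). At RANKL 4 h, 0 of 10 osteoclast markers were called, so that they do not check that label. The summed level of 8 macrophage markers was 7360 to 9075 FPKM in control and at least 6046 FPKM in every sample. LPS 72 h replicate 3 stood apart from replicates 1 and 2, with 17491 against 6086 and 7876 FPKM of summed macrophage markers, 619 against 145 and 152 FPKM of stromal markers and 1779 against 184 and 150 FPKM of neutrophil and precursor markers. Without it the count of members called was again 0 for LPS 72 h against control and 5 for RANKL 72 h against LPS 72 h, and it was 7 in place of 6 for LPS 72 h against LPS 4 h (*Itpr1*, higher). At LPS 4 h the median of all genes tested lay at -0.52 on the log2 scale against control, and at RANKL 72 h and LPS 72 h it lay at 0.16 and 0.08, so that changes are also given relative to these medians.

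At RANKL 4 h, 0 of the 10 genes were counted as changed by limma, beside 0.111% of all genes tested that were higher and 0.00852% that were lower. With the unadjusted p in the call, 1 member (*Itpr1*, lower) was counted there. By RANKL 72 h, *Calcr*, *Atp2b4* and *Itpr3* were higher than in control and *Itpr1* was lower (3 and 1 of 10, beside 16.6% and 7.54% of all genes), of which *Calcr* passed the filter on low values only through that group. LPS 4 h raised *Atp2b4* and lowered *Orai1*, *Stim1*, *Itpr1*, *Itpr3*, *Atp2b1* and *Slc8a1* (1 and 6 of 10, beside 8.43% and 39.7%). The median log2 fold change of the 10 members was -0.79 there, against -0.52 over all genes. When samples were centred on their median gene, only *Atp2b4* (higher) and *Orai1* (lower) kept their call at LPS 4 h. LPS 72 h changed 0 of 10 by limma, beside 13% higher and 14.4% lower of all genes, although *Stim1* and *Atp2b1* had an adjusted p under 0.05 with a fold change inside the limits. At an unadjusted p under 0.05 the count at LPS 72 h was again 0.

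**Figure D1:**
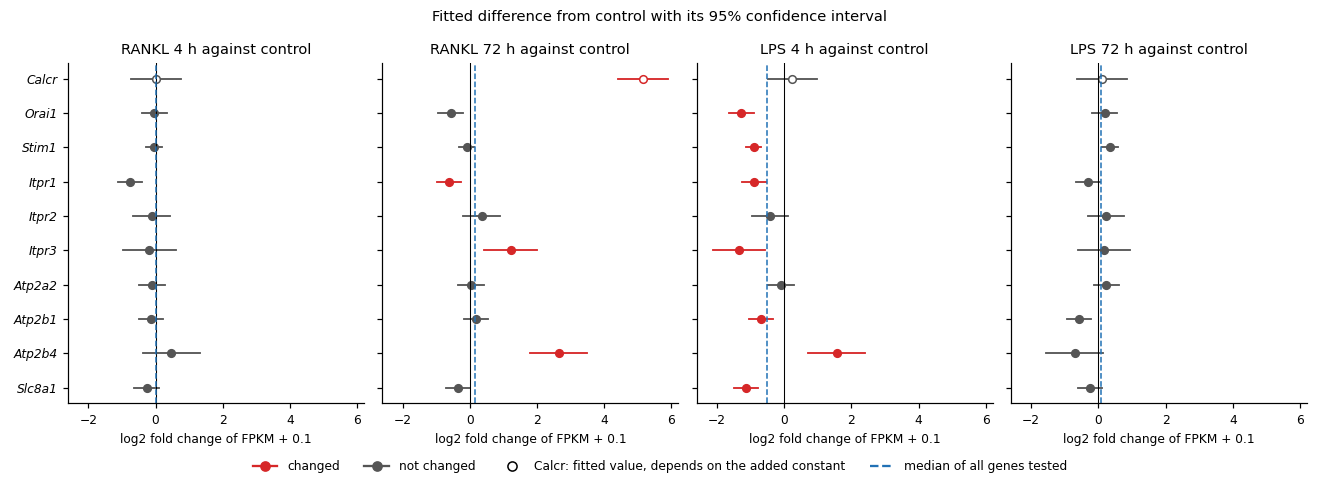
Fitted log2 fold change of FPKM + 0.1 (x axis) of each of the 10 genes (y axis) for the 4 stimulated groups against control, with 95% confidence intervals from limma. Red marks genes counted as changed, the open symbol marks Calcr, whose fitted value depends on the added constant, and the dashed line is the median of all genes tested, which lies at -0.52 in LPS 4 h, with 6 members counted as lower and Atp2b4 alone as higher.

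In the direct comparisons, RANKL 4 h against LPS 4 h called *Orai1*, *Stim1*, *Itpr3* and *Slc8a1* higher and *Atp2b4* lower (4 and 1 of 10, beside 41% and 8.98% of all genes). RANKL 72 h against LPS 72 h called *Calcr*, *Itpr3*, *Atp2b1* and *Atp2b4* higher and *Orai1* lower (4 and 1, beside 23.3% and 12.8%). Between the times, *Calcr*, *Itpr3* and *Atp2b4* were higher at RANKL 72 h than at RANKL 4 h and no member was lower (3 and 0, beside 16.4% and 6.83%), whereas *Orai1*, *Stim1*, *Itpr2*, *Itpr3* and *Slc8a1* were higher and *Atp2b4* lower at LPS 72 h than at LPS 4 h (5 and 1, beside 44.2% and 13.9%). With samples centred on their median gene, *Stim1*, *Itpr3* and *Slc8a1* lost their call between RANKL 4 h and LPS 4 h. The calls of *Calcr* in these comparisons are no support, since it passed the filter only through RANKL 72 h. These comparisons share samples with each other and with those against control.

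**Figure D2:**
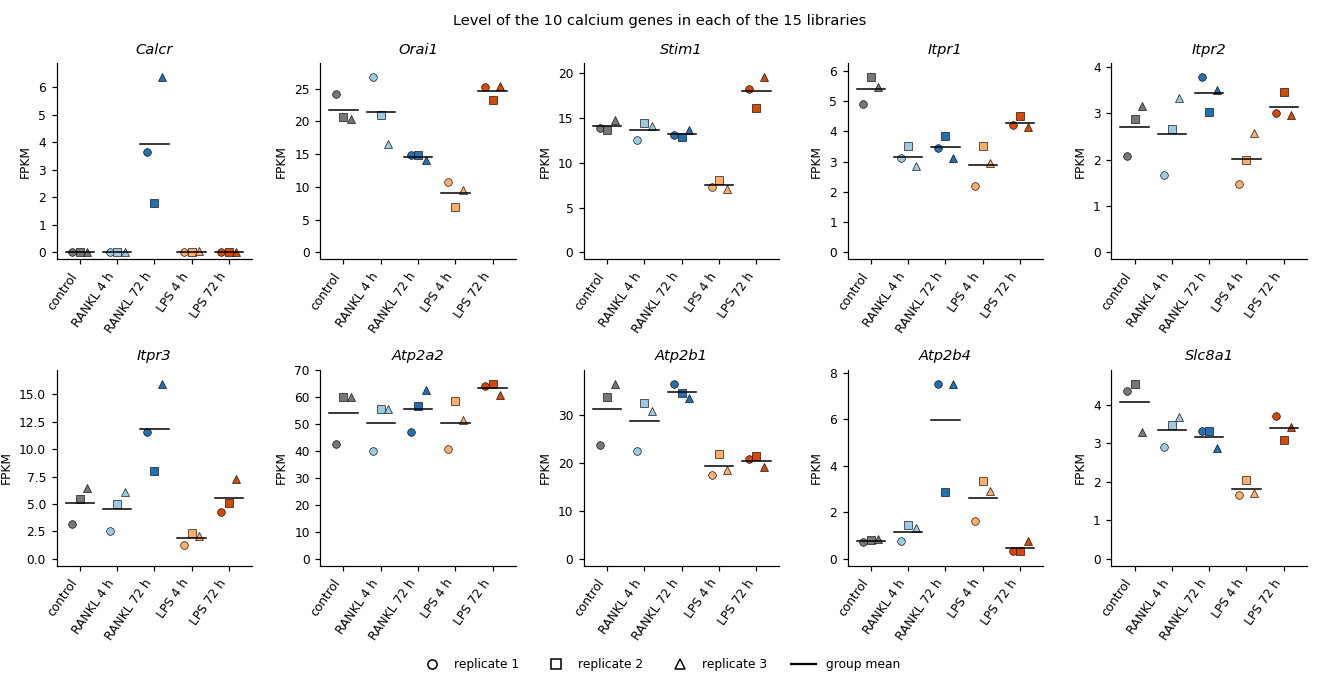
FPKM (y axis, linear) of each of the 10 genes in the 15 libraries, grouped by stimulus and time (x axis), with a symbol per replicate and a line at the group mean. Calcr stands at or near 0 outside RANKL 72 h, Atp2b4 is highest at RANKL 72 h and next highest at LPS 4 h, and Atp2a2 overlaps between groups that are neighbours in the order of the means.

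*Calcr* (GRCm38, GENCODE M21, chromosome 6, 3685680 to 3764714, minus strand, up to 16 exons) was read at RANKL 72 h and hardly anywhere else. The 3 RANKL 72 h samples had 3.63, 1.79 and 6.36 FPKM, from 281, 145 and 508 fragments. All control and RANKL 4 h samples had 0 fragments, whereas LPS 4 h samples had 0 to 3 and LPS 72 h samples 0 to 1. Each RANKL 72 h sample thus stood above every other sample, and the groups did not overlap. A count of 0 allows up to 3 fragments. Against the mean of that floor over the control samples, the mean of *Calcr* at RANKL 72 h was at least 108-fold higher. Its lowest RANKL 72 h sample was at least 49.3-fold higher. The RANKL 72 h mean was at least 107-fold higher than at LPS 72 h and at least 106-fold higher than at RANKL 4 h. *Calcr* passed the filter on low values only through the RANKL 72 h samples, so that its calls by limma there had to follow and are no support of their own. Leaving out RANKL 72 h replicate 1, 2 or 3 gave at least 112-fold, 138-fold and 74.7-fold against control. No fold is given between the other groups, which lay at or below the floor. The spread within RANKL 72 h was wide (SD 2.30 for a mean of 3.93 FPKM), and replicate 2, the lowest in *Calcr*, was also the lowest in *Atp2b4* and *Itpr3*. The microRNA genes *Mir653* and *Mir489* lie within the gene on the same strand.

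Of the calcitonin receptor family, 5 of 7 other genes passed the filter on low values. *Calcrl*, the sister receptor that binds CGRP and adrenomedullin together with RAMP proteins, had 5.85 ± 1.11 FPKM in control, 5.70 ± 1.25 at RANKL 72 h and 27.1 ± 8.94 at LPS 4 h (SD, n = 3 each). It rose at LPS 4 h (2.15 on the log2 scale, 2.67 relative to the median gene, adjusted p = 2.62e-05 from limma), and its level at LPS 72 h was 3.66 ± 0.943 FPKM, lower than at LPS 4 h (-2.83, adjusted p = 1.61e-06). *Ramp1* and *Ramp3*, whose proteins change the ligand choice of both receptors, were lower at RANKL 72 h than in control. *Ramp1* had 0.536 ± 0.227 against 1.71 ± 0.264 FPKM (log2 fold change -1.57, adjusted p = 0.00456) and *Ramp3* 0.400 ± 0.349 against 3.34 ± 2.55 FPKM (-2.95, adjusted p = 0.0291), the latter from 0 to 18 fragments per RANKL 72 h sample. *Ramp1* was also lower at LPS 4 h (-0.98, adjusted p = 0.0263) and at LPS 72 h (-2.97, adjusted p = 4.16e-05), where it had 0.141 ± 0.0878 FPKM. *Ramp2* stayed at or below 6 fragments in every sample, and *Calca*, the gene of calcitonin itself and of CGRP, at or below 4. *Calcb* had at most 16 fragments. *Crcp*, a cofactor of the CGRP receptor, had 22.8 ± 2.0 FPKM in control and 17.9 ± 1.59 at RANKL 72 h. In the time-matched comparison it was lower at RANKL 72 h than at LPS 72 h (-0.70, adjusted p = 0.00506), where it had 29.99 ± 8.61 FPKM. In that comparison 1 of the 5 family genes tested was called higher and 1 lower (beside 23.3% and 12.8% of all genes). The mean of *Ramp1* went the other way from *Crcp*, with 0.536 FPKM at RANKL 72 h against 0.141 FPKM at LPS 72 h.

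*Orai1* (chromosome 5, 123015074 to 123030456, plus strand), the pore of store-operated calcium entry, had 24.2, 20.6 and 20.4 FPKM in the control replicates. It had 14.8, 14.9 and 14.1 FPKM at RANKL 72 h, 10.8, 6.96 and 9.47 at LPS 4 h and 25.3, 23.2 and 25.4 at LPS 72 h. The RANKL 72 h and LPS 4 h values lay below all control and LPS 72 h values, with no overlap. At LPS 4 h *Orai1* fell by 1.27 on the log2 scale (95% interval -1.64 to -0.90, adjusted p = 3.82e-05 from limma), or -0.75 relative to the median gene. At RANKL 72 h its log2 fold change of -0.57 (adjusted p = 0.0249) missed the fold limit, and it was called lower there without control replicate 2 or 3 (-0.60 and -0.61, adjusted p = 0.0467 and 0.0385), with samples centred on their median gene (-0.79, adjusted p = 0.0116) or with stromal markers as a covariate (-0.74, adjusted p = 0.0135). It was lower at RANKL 72 h than at LPS 72 h (-0.75, adjusted p = 0.00326) under every alternative tried. RANKL 4 h samples ranged from 16.6 to 26.8 FPKM and overlapped with control. Against RANKL 4 h, the RANKL 72 h level was -0.52 (adjusted p = 0.0363), which passed the fold limit without RANKL 4 h replicate 3 (-0.69, adjusted p = 0.0121), with samples centred on their median gene (-0.74, adjusted p = 0.0154) and with the stromal covariate (-0.69, adjusted p = 0.0176). The antisense gene *Gm2479* overlaps *Orai1*, and whether counting used strand is not given in the sources used here.

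*Stim1* (chromosome 7, 102267806 to 102437319, plus strand) read 13.9, 13.6 and 14.8 FPKM in control and 13.1, 12.9 and 13.7 FPKM at RANKL 72 h, which overlap. The log2 difference between these groups was -0.09 with a 95% interval of -0.32 to 0.13. It read 7.25, 8.04 and 7.13 FPKM at LPS 4 h and 18.2, 16.1 and 19.6 at LPS 72 h, the lowest and highest groups, neither of which overlapped with the rest. The log2 fold change at LPS 4 h was -0.91 (adjusted p = 9.69e-06 from limma), -0.39 relative to the median gene, and the difference between LPS 72 h and LPS 4 h was 1.25 (adjusted p = 4.39e-07). At LPS 72 h against control the log2 fold change of 0.34 (adjusted p = 0.0221) was below the fold limit.

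Both store-operated genes had lower shares of their families at RANKL 72 h and LPS 4 h, where the sister genes *Orai2* and *Stim2*, named after their values were seen, rose. *Orai1* made up 45.0% to 49.5% of the summed *Orai1*, *Orai2* and *Orai3* level in control samples, 28.9% to 33.0% at RANKL 72 h and 17.8% to 26.2% at LPS 4 h. *Orai2* rose at RANKL 72 h (7.36 ± 1.23 to 15.95 ± 3.07 FPKM, log2 fold change 1.10, adjusted p = 0.00022 from limma) and at LPS 4 h (24.2 ± 1.10 FPKM, 1.71, adjusted p = 1.03e-06). The family sum was 46.3 ± 2.34 FPKM in control, 47.5 ± 1.99 at RANKL 72 h and 39.8 ± 1.29 at LPS 4 h (SD, n = 3 each). *Stim1* likewise made up 67.9% to 69.8% of the *Stim1* and *Stim2* sum in control, 53.7% to 59.7% at RANKL 72 h and 32.4% to 41.5% at LPS 4 h. *Stim2*, the sensor of smaller store losses, rose at RANKL 72 h (by 0.63 log2 units, adjusted p = 0.00396) and at LPS 4 h (0.97, adjusted p = 4.49e-05). None of these share ranges overlapped with control, for which the two-sided exact permutation test of 3 against 3 gives its smallest possible p of 0.1. At LPS 72 h the *Orai1* share was 38.3% to 51.0% and the *Stim1* share 61.6% to 70.7%, and both overlapped with control.

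**Figure D3:**
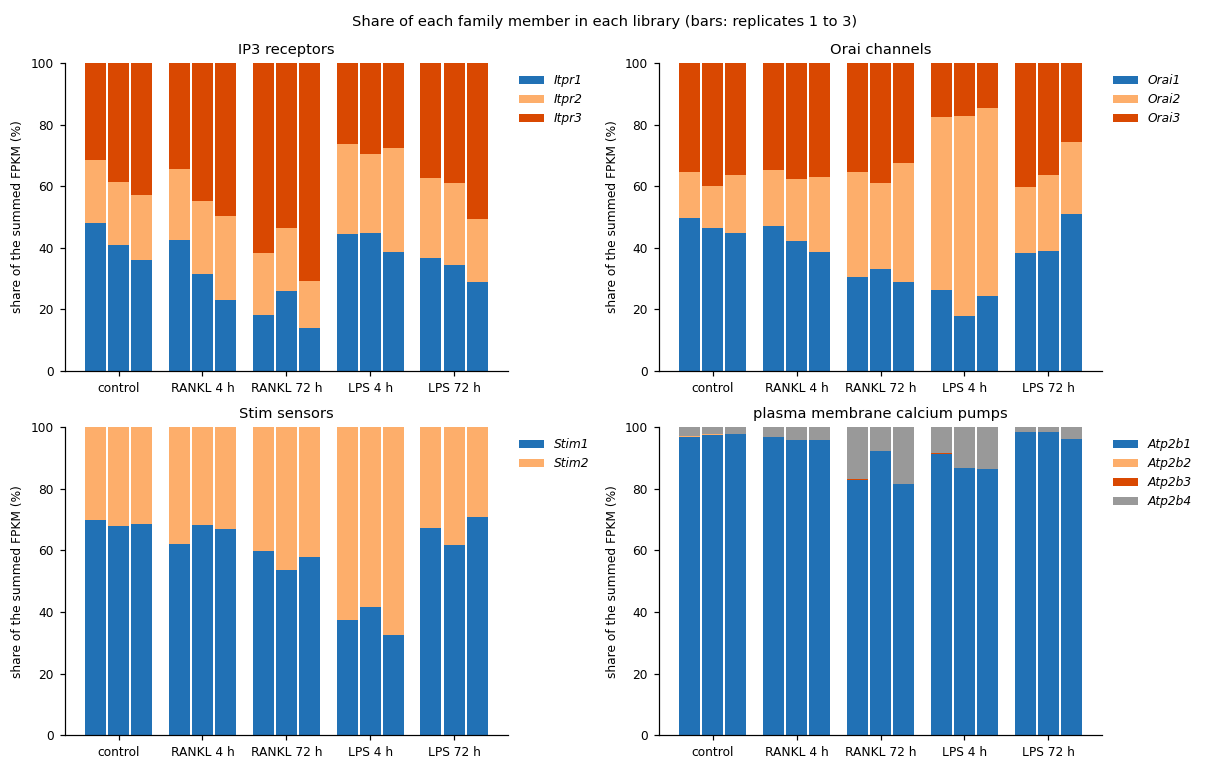
Share of each gene in the summed FPKM of its family (y axis, %) in each of the 15 libraries (stacked bars, replicates 1 to 3 within each group on the x axis), for 4 families. Itpr3 holds 53.7% to 70.6% of the IP3 receptor sum at RANKL 72 h against 31.6% to 42.8% in control, and Orai2 holds 56.2% to 64.9% of the Orai sum at LPS 4 h.

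Of the 3 IP3 receptors, *Itpr3* was called higher and *Itpr1* lower at RANKL 72 h, both calls being lost without RANKL 72 h replicate 3, and *Itpr2* was not called there. *Itpr3* (chromosome 17, 27057304 to 27122223, plus strand) had 3.22, 5.45 and 6.46 FPKM in control and 11.6, 7.98 and 15.96 FPKM at RANKL 72 h. At LPS 4 h it had 1.30, 2.32 and 2.11 FPKM, and at LPS 72 h 4.31, 5.11 and 7.26. The RANKL 72 h samples were the 3 highest and the LPS 4 h samples the 3 lowest of all 15, whereas control, RANKL 4 h (2.52 to 6.11 FPKM) and LPS 72 h overlapped. *Itpr3* rose at RANKL 72 h by 1.22 log2 units (standard error 0.36, adjusted p = 0.0219 from limma), or 1.06 relative to the median gene. That call was lost without control replicate 1 (0.93, adjusted p = 0.104), RANKL 72 h replicate 1 (1.203, adjusted p = 0.0541) or RANKL 72 h replicate 3 (0.97, adjusted p = 0.0924). Against LPS 72 h the rise was 1.05 (adjusted p = 0.0292), and it was lost without LPS 72 h replicate 1 or 2 or RANKL 72 h replicate 1 or 3 (0.81 to 1.04, adjusted p = 0.0667 to 0.118). Against RANKL 4 h it was 1.40 (adjusted p = 0.0114), with adjusted p = 0.0524 without RANKL 72 h replicate 3 and 0.0569 without RANKL 4 h replicate 1. At LPS 4 h it fell by 1.34 (adjusted p = 0.00601), or -0.82 relative to the median gene, a call that was lost with samples centred on their median gene (-0.77, adjusted p = 0.108). RANKL 4 h exceeded LPS 4 h by 1.15 (adjusted p = 0.0138), not called without LPS 4 h replicate 1 (0.91, adjusted p = 0.0641) or RANKL 4 h replicate 3 (0.90, adjusted p = 0.0668). The difference between the LPS times was 1.5 (adjusted p = 0.0023), or 0.85 with samples centred on their median gene (adjusted p = 0.0562). The antisense gene *Itpr3os* overlaps the locus.

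*Itpr1* (chromosome 6, 108213096 to 108551109, plus strand) was highest in control, with 4.91, 5.79 and 5.46 FPKM. All other samples lay below these, with 3.13, 3.50 and 2.84 FPKM at RANKL 4 h, 3.45, 3.85 and 3.13 at RANKL 72 h, 2.21, 3.52 and 2.96 at LPS 4 h and 4.22, 4.50 and 4.14 at LPS 72 h. The LPS 72 h samples stood between control and the other 3 groups, which overlapped with each other. *Itpr1* fell at LPS 4 h (-0.89, adjusted p = 0.000496 from limma, -0.37 relative to the median gene) and at RANKL 72 h (-0.62, adjusted p = 0.014, -0.78 relative to the median gene). The latter call was lost without control replicate 2 (-0.57, adjusted p = 0.0541) or RANKL 72 h replicate 3 (-0.55, adjusted p = 0.0549). At RANKL 4 h the log2 fold change was -0.75, the largest absolute value of any member at that time, with adjusted p = 0.157. At LPS 72 h it was -0.32 (95% interval -0.68 to 0.04). The level at LPS 72 h exceeded that at LPS 4 h by 0.57 (adjusted p = 0.00812), just under the fold limit, and was called higher without LPS 4 h replicate 2 or 3 or LPS 72 h replicate 3 (0.60 to 0.72), whereas it was -0.074 with samples centred on their median gene (adjusted p = 0.707). The antisense gene *Gm44040* overlaps *Itpr1*.

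*Itpr2* (chromosome 6, 146108299 to 146502223, minus strand) had group means between 2.01 ± 0.559 FPKM at LPS 4 h and 3.44 ± 0.380 FPKM at RANKL 72 h (SD, n = 3 each). Its ranges overlapped between every pair of neighbouring groups in the order of the means. In the single change called, LPS 72 h exceeded LPS 4 h by 0.65 log2 units (adjusted p = 0.0366 from limma). That difference was -0.0028 with samples centred on their median gene (adjusted p = 0.993), and it was lost without LPS 4 h replicate 1 (0.45, adjusted p = 0.162) or 2 (0.66, adjusted p = 0.0697) or LPS 72 h replicate 1 (0.68, adjusted p = 0.0613) or 2 (0.57, adjusted p = 0.106). As shares of the summed receptor level, *Itpr1* went from 41.8% ± 5.98 in control to 19.4% ± 6.09 at RANKL 72 h while *Itpr3* went from 37.7% ± 5.69 to 62.0% ± 8.47. In control replicates 1 and 2 *Itpr1* held the largest share, and in every RANKL 72 h sample *Itpr3* did. The sum itself was 13.1 ± 2.58 FPKM in control, 18.8 ± 3.87 at RANKL 72 h and 6.82 ± 1.60 at LPS 4 h.

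*Atp2b4* (chromosome 1, 133699457 to 133801041, minus strand), a calcium pump of the plasma membrane, had 0.731, 0.801 and 0.842 FPKM in control and 7.50, 2.87 and 7.53 at RANKL 72 h. It had 1.64, 3.33 and 2.92 FPKM at LPS 4 h and 0.329, 0.335 and 0.770 at LPS 72 h. Every RANKL 72 h and LPS 4 h sample was above every control sample, and these groups overlapped with each other. RANKL 4 h samples, at 0.756, 1.44 and 1.32 FPKM, overlapped with control. The log2 fold change was 2.64 at RANKL 72 h (95% interval 1.79 to 3.50, adjusted p = 0.00035 from limma), and the call was the same under all 18 alternatives. At LPS 4 h it was 1.56 (0.70 to 2.42, adjusted p = 0.00416), or 2.08 relative to the median gene, again with the same call under all 18 alternatives. The direction turned with time in LPS, where LPS 72 h was lower than LPS 4 h (-2.27, adjusted p = 0.000203), and LPS 72 h against control gave -0.71 (95% interval -1.56 to 0.15), or -1.04 without LPS 72 h replicate 3 (adjusted p = 0.0541). At equal times, RANKL exceeded LPS by 3.35 at 72 h (adjusted p = 1.77e-05), whereas RANKL was lower by -1.09 at 4 h (adjusted p = 0.0291), a call lost without RANKL 4 h replicate 1 (-0.83, adjusted p = 0.118) or LPS 4 h replicate 2 (-0.90, adjusted p = 0.105) or 3 (-0.99, adjusted p = 0.0862). RANKL 72 h also exceeded RANKL 4 h (2.17, adjusted p = 0.00148).

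*Atp2b1* (chromosome 10, 98914406 to 99026143, plus strand), the more abundant plasma membrane pump, had 23.8, 33.9 and 36.5 FPKM in control and 36.6, 34.6 and 33.6 at RANKL 72 h, which overlap (log2 difference 0.18, 95% interval -0.18 to 0.53). It had 17.6, 21.8 and 18.6 FPKM at LPS 4 h and 20.9, 21.5 and 19.1 at LPS 72 h. All 6 LPS samples lay below all 9 others, and the LPS groups overlapped with each other. *Atp2b1* fell at LPS 4 h (-0.68, adjusted p = 0.00317 from limma), which is -0.15 relative to the median gene, and without control replicate 3 the fold limit was missed (-0.56, adjusted p = 0.0187). At LPS 72 h it was -0.59 (adjusted p = 0.0139), just short of the fold limit and -0.67 relative to the median gene, and it was called lower without control replicate 1 (-0.78), LPS 72 h replicate 1 (-0.60) or LPS 72 h replicate 2 (-0.63). RANKL 72 h exceeded LPS 72 h by 0.77 (adjusted p = 0.00196) under every alternative tried. RANKL 4 h exceeded LPS 4 h by 0.56 (adjusted p = 0.0103), under the fold limit, and was called higher without LPS 4 h replicate 2 (0.65) or RANKL 4 h replicate 1 (0.72), whereas it was -0.011 with samples centred on their median gene. As a share of the 4 plasma membrane pumps, *Atp2b4* was 2.25% to 2.98% in control, 7.63% to 18.3% at RANKL 72 h and 8.51% to 13.6% at LPS 4 h, and *Atp2b1* held 81.7% to 98.4% in every sample. The pump sum was 32.2 ± 6.75 FPKM in control, 41.0 ± 3.33 at RANKL 72 h and 22.0 ± 2.97 at LPS 4 h (SD, n = 3 each).

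*Atp2a2* (chromosome 5, 122453513 to 122502225, minus strand), the SERCA pump that refills the store, was the most abundant member in every group and had the smallest ratio between its highest and lowest group mean. These means ran from 50.2 ± 9.07 FPKM at RANKL 4 h to 63.1 ± 2.13 at LPS 72 h (SD, n = 3 each), a ratio of 1.26, whereas within groups its spread (coefficient of variation 18.8% in control and 14.2% at RANKL 72 h) was wider than that of *Stim1* (4.21% and 3.09%). Groups next to each other in the order of the means overlapped, whereas the LPS 72 h samples (60.7 to 64.8 FPKM) lay just above those of control (42.4 to 59.97 FPKM). No comparison called it changed, and against control the 95% intervals ran from -0.49 to 0.28 at RANKL 4 h and from -0.14 to 0.62 at LPS 72 h. Its share of the SERCA sum was 62.1% to 77.3% in control and 88.6% to 96.8% at LPS 72 h, which did not overlap. Beside it *Atp2a3*, the other SERCA gene expressed, fell from 25.6 ± 8.32 FPKM in control to 4.30 ± 2.98 at LPS 72 h (-2.71 log2 units, adjusted p = 0.000111 from limma), and it was higher at RANKL 72 h (14.6 ± 3.04 FPKM) than at LPS 72 h (1.93, adjusted p = 0.000735).

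*Slc8a1* (chromosome 17, 81373105 to 81738377, minus strand), the sodium-calcium exchanger, had 4.36, 4.56 and 3.31 FPKM in control and 1.65, 2.06 and 1.72 at LPS 4 h. The LPS 4 h samples were the 3 lowest of all 15, and the other 4 groups, with means of 3.17 to 4.07 FPKM, overlapped. It fell by 1.12 log2 units at LPS 4 h (adjusted p = 7.27e-05 from limma), -0.60 relative to the median gene, and RANKL 4 h and LPS 72 h exceeded LPS 4 h by 0.85 (adjusted p = 0.000608) and 0.88 (adjusted p = 0.000362). These 3 calls were lost with samples centred on their median gene. It made up 97.9% or more of the *Slc8a1*, *Slc8a2* and *Slc8a3* sum in every sample. The protein-coding gene *Gm11096* and the antisense gene *AC122399.1* on the other strand overlap its locus.

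Markers of other cells moved with the groups, and apart from a fit with the stromal markers as a covariate their part in the results was not tested. The summed level of 10 osteoclast markers was 157 to 283 FPKM in control and 3200, 1739 and 5524 FPKM in RANKL 72 h replicates 1, 2 and 3, and 9 of the 10 rose. *Calcr*, *Itpr3* and *Atp2b4* had the same order over these 3 samples, although replicates 1 and 3 hardly differed in *Atp2b4* (7.50 and 7.53 FPKM). The sum of 18 stromal markers, collagens and other genes of fibroblast-like cells, was 191 to 418 FPKM in control. It was 2299, 1063 and 504 FPKM in the same RANKL 72 h replicates, with 10 of the 18 counted as higher. What the orders over these 3 samples rest on was not tested. At the other end, the sum of 7 neutrophil and precursor markers was 7524 to 22591 FPKM in control, 1719 to 6811 at RANKL 72 h and 150 to 1779 at LPS 72 h. Of the marker sums of further cell types, B cells (16.2 to 20.9 FPKM in control, 5.08 to 7.24 at RANKL 72 h and 0.497 to 2.22 at LPS 72 h), mast cells and basophils (23.3 to 66.0, 0.473 to 3.62 and 0.576 to 6.15) and erythroid cells (3.22 to 11.2, 0.0250 to 0.143 and 0.290 to 0.607) were also lower at 72 h. T cell markers summed to at most 7.63 FPKM and endothelial markers to at most 18.7 in any sample, and 5 smooth muscle markers reached 279 FPKM in RANKL 72 h replicate 1. In bulk samples, fewer cells of a type and less RNA per cell cannot be told apart. With the stromal markers as a covariate, *Itpr3* and *Atp2b4* kept their calls at RANKL 72 h against control, and *Itpr1* lost its own (-0.59, adjusted p = 0.0453 from limma). *Calcr* kept its call as well, which is no support, since it passed the filter only through RANKL 72 h. The stromal sum did not overlap between these groups, so that this fit cannot tell stromal content and stimulus apart.

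**Figure D4:**
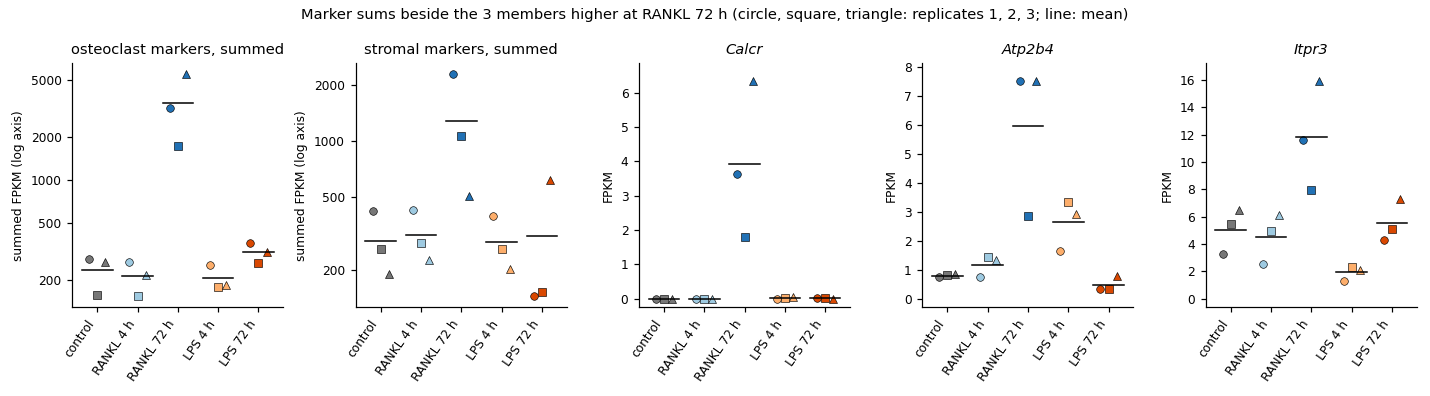
Summed FPKM of 10 osteoclast and 18 stromal markers (first and second panel, log axes) and FPKM of Calcr, Atp2b4 and Itpr3 (linear axes) in the 15 libraries by group, with a symbol per replicate and a line at the mean. Replicate 2 is the lowest RANKL 72 h sample in the osteoclast sum and in all 3 genes, and replicate 3 is the lowest in the stromal sum. What these orders rest on was not tested.

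Of 85 other calcium-handling genes in 7 lists, 63 passed the filter. At RANKL 4 h 0 of the 63 were called by limma. At RANKL 72 h 11 were higher and 6 lower (beside 16.6% and 7.54% of all genes tested), at LPS 4 h 5 and 22 (beside 8.43% and 39.7%), and at LPS 72 h 8 and 12 (beside 13% and 14.4%), with medians of 0.04, -0.49 and -0.09 on the log2 scale. RANKL 72 h against LPS 72 h gave 11 higher and 7 lower (beside 23.3% and 12.8%), and RANKL 4 h against LPS 4 h gave 24 and 4 (beside 41% and 8.98%). The counts of each list below are to be read against the same shares of all genes, and whether a list differs from other genes was not tested. Among 7 phospholipase C genes, which make IP3, 3 rose at RANKL 72 h and none fell (beside 16.6% and 7.54% of all genes). *Plcd1* had 1.53 ± 0.745 against 0.521 ± 0.245 FPKM in control (log2 fold change 1.39, adjusted p = 0.0116 from limma). Of 17 calcium entry genes, 3 were higher and 2 lower at RANKL 72 h, and 3 and 7 at LPS 4 h. *P2rx4*, an ATP-gated channel, had 69.2 ± 11.1 FPKM at RANKL 72 h against 142 ± 26.2 at RANKL 4 h (-1.03, adjusted p = 0.00121). *Trpv4*, a channel opened by warmth and osmotic stretch, had 1.65 ± 0.345 FPKM at LPS 72 h against 7.84 ± 1.64 in control (-2.18, adjusted p = 1.85e-05) and 6.21 ± 0.825 at RANKL 72 h. *Cacna1d*, a voltage-gated channel subunit, had 2.20 ± 0.911 FPKM at LPS 72 h against 0.404 ± 0.148 at LPS 4 h (2.17, adjusted p = 3.7e-05).

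Among 10 genes of calcium release from stores, 2 were higher and 2 lower at RANKL 72 h (beside 16.6% and 7.54% of all genes), and 0 and 4 at LPS 4 h (beside 8.43% and 39.7%). *Tpcn1*, a channel of endosomes and lysosomes, had 14.3 ± 6.89 FPKM in control, 31.7 ± 2.27 at RANKL 72 h, 3.35 ± 0.980 at LPS 4 h and 6.40 ± 2.21 at LPS 72 h (SD, n = 3 each). It rose at RANKL 72 h (1.27, adjusted p = 0.0154 from limma) and fell at LPS 4 h (-1.98, adjusted p = 0.000322) and LPS 72 h (-1.08, adjusted p = 0.0293). Of 8 pumps and exchangers and their partners, 2 rose at RANKL 72 h and none fell, whereas at LPS 72 h 1 rose and 2 fell. Of 8 mitochondrial uptake genes, 1 rose and none fell at RANKL 72 h, 2 fell at LPS 4 h, and 1 rose and 1 fell at LPS 72 h. Of 8 calcium buffers and sensors, 0 changed at RANKL 72 h, 3 fell at LPS 4 h (beside 39.7% of all genes) and 3 at LPS 72 h (beside 14.4%). *Camk2g*, a calmodulin-dependent kinase, had 2.13 ± 0.0432 FPKM at LPS 4 h against 9.14 ± 1.33 in control (-2.04, -1.52 relative to the median gene, adjusted p = 9.56e-08).

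**Figure D5:**
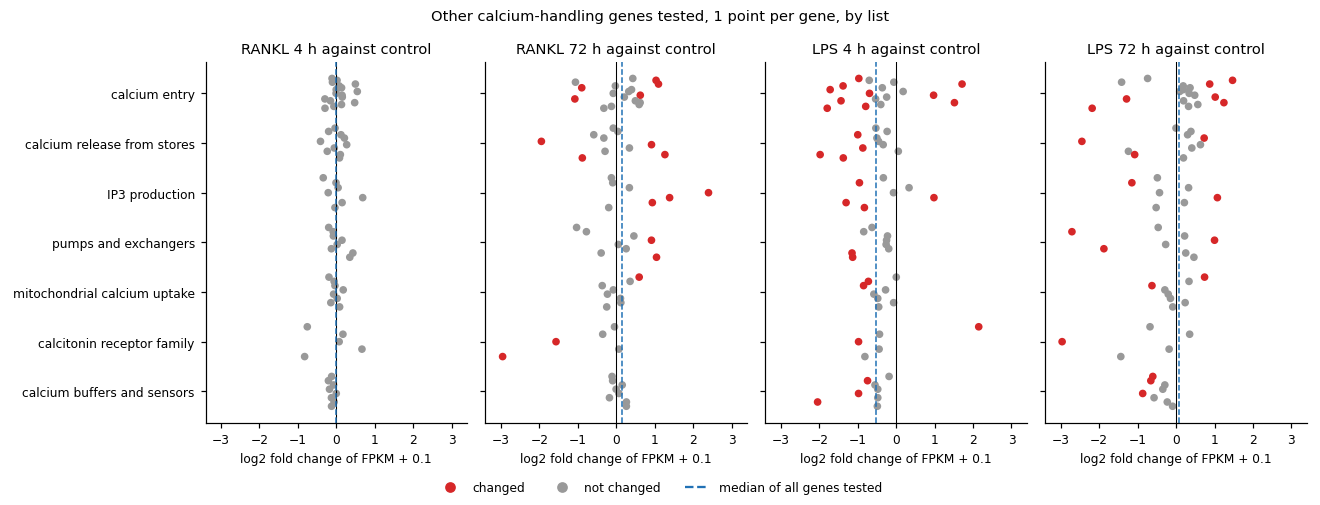
Fitted log2 fold change of FPKM + 0.1 (x axis) of 63 other calcium-handling genes, 1 point per gene, in 7 lists (y axis) for the 4 stimulated groups against control. Red points were counted as changed, and the dashed line is the median of all genes tested. At RANKL 72 h 11 points are red to the right and 6 to the left, and at LPS 4 h 5 and 22.

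The genes whose profile over the 15 samples was most like that of a member are given as a description, by Pearson's r of log2(FPKM + 0.1) over samples that share their group and library. For *Calcr* they were *Mst1r* (0.99), *Serpind1* (0.99) and *Oscar* (0.99), the last encoding an osteoclast receptor. For *Atp2b4* they were *Adrbk2* (0.97), *Ppargc1b* (0.95) and *Sept11* (0.95), and for *Itpr3* they were *Got2* (0.97), *2610507B11Rik* (0.97) and *Golm1* (0.97). *Orai1* was nearest to *Mrpl22* (0.97), *Dpcd* (0.96) and *Gpaa1* (0.95), *Stim1* to *Apeh* (0.98), *Rabggta* (0.98) and *Aldh3b1* (0.98), and *Slc8a1* to *Mknk1* (0.94), *Dctn5* (0.94) and *Bin2* (0.94). *Itpr1* had lower values, with *Tlr4* (0.88), the LPS receptor, *Rab29* (0.84) and *Chordc1* (0.81). *Itpr2* was nearest to *Ralgapa1* (0.96), *Gm15800* (0.96) and *Klhl28* (0.96), *Atp2b1* to *Qk* (0.97), *Mbnl1* (0.96) and *Asph* (0.95), and *Atp2a2* to *Kif5b* (0.93), *Slc38a1* (0.90) and *Prrc2a* (0.88).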

How the data were processed

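RNA-seq libraries of mouse BMDMs were analysed in 15 samples, 3 per group, with groups and replicate numbers taken from the sample labels. The authors deposited FPKM values, 1 per gene and sample, estimated with StringTie and Ballgown; the submitters' processing notes name mm10 (GRCm38.p4), and the aligner is not given in the sources used here. The last entry of the table is incomplete and was left out, and genes after it in alphabetical order were not analysed here. The table was not cut at a lowest level, since it lists 4453 genes at 0 in all samples.

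The deposited FPKM came in equal steps per gene, from which whole fragments were recovered for 14485 genes above 0 in at least 3 samples. A gene was kept only if all its values came within 0.01 of a whole number. That closeness was thus a condition and is no check of the fragments. The main test was limma 3.58.1 in R 4.3.3 on log2(FPKM + 0.1), with a trended spread and 1 fit of 5 groups, over the 11743 genes that averaged 0.1 FPKM or more. Changed meant a fold change above 1.5 or below 0.66, the limits of the study's methods, with a Benjamini-Hochberg adjusted p under 0.05 over all tested genes, where the methods use an unadjusted p, tried here as an alternative. With FPKM, limma voom on recovered fragments was an alternative and not the main test. Fold changes are log2 differences of the first group named minus the second. For shares and single values an exact permutation test (two-sided, 3 against 3) was used, whose smallest p is 0.1. The 95% intervals are limma's and rest on the spread between samples, whereas the floor of 3 fragments covers counting error only, since fragments of amplified libraries are not independent molecules. Replicates of a group differed by 6.87 to 46.3 times the sampling noise of repeat libraries (median chi-square over genes against its expected value) and were each counted; both largest values, 31.5 and 46.3, involve LPS 72 h replicate 3.

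The 10 members, the other gene lists and the tests were chosen with earlier results of these data known. Genes were named by rule: all members, the 3 other calcium genes with the largest changes in a comparison among those with a mean of at least 1 FPKM, and the calcitonin receptor family. The rule also took 6 genes that check the labels of RANKL 72 h and LPS 4 h, and the 3 nearest genes of each member. Positions are from GENCODE M21, promoters from RefSeq for 8 of the 10 members, and 2 list genes were matched through older symbols (*Tmem110*, *Ccdc109b*). Alternatives varied the added constant (1, 0.01), the filter (none, 1 FPKM), the scaling, the samples fitted, the trend, the adjustment, a replicate block and the samples kept. The stromal covariate and the shares without each replicate were added after seeing the data. Same-numbered samples deviated together from their group means over 9486 genes in RANKL 4 h and control (correlations of 0.71 to 0.84), RANKL 72 h and control (0.14 to 0.32), LPS 4 h and control (0.44 to 0.62), RANKL 4 h and LPS 4 h (0.55 to 0.69) and RANKL 72 h and RANKL 4 h (0.16 to 0.25); the labels do not say what the numbers share. The recovery of fragments and the limma fit were tried on simulated fragments. For the fit these had independent samples, the same dispersion for every gene and changes at RANKL 72 h only. The shared deviations of same-numbered samples were not simulated. Python 3.11.15, numpy 2.4.6, pandas 2.3.3, scipy 1.17.1 and matplotlib 3.10.9 were used otherwise.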

Additional observations from a re-analysis of the deposited data

Results flagged for a closer look

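In 9 cases the level of a member under a stimulus differed between the times, by limma's test of the difference between 72 h and 4 h. Time in culture and stimulus cannot be told apart in these comparisons. In RANKL, *Calcr* was higher at 72 h than at 4 h (fitted log2 difference 5.16, a value that depends on the added constant, with the lower bound given in the report), as were *Itpr3* (1.40) and *Atp2b4* (2.17). In LPS, *Orai1* (1.45), *Stim1* (1.25), *Itpr2* (0.65), *Itpr3* (1.5) and *Slc8a1* (0.88) were higher at 72 h than at 4 h, where the median of all genes differed by 0.52 in the same direction. *Atp2b4* went the other way in LPS (-2.27). In RANKL these were 3 higher and 0 lower of 10, beside 16.4% and 6.83% of all genes tested. The call of *Calcr*, counted among them, is no support, since it passed the filter on low values only through RANKL 72 h. In LPS they were 5 and 1 of 10, beside 44.2% and 13.9%. With samples centred on their median gene, 3 calls between the LPS times were lost. They were those of *Itpr2* (-0.0028, adjusted p = 0.993 from limma), *Itpr3* (0.85, adjusted p = 0.0562) and *Slc8a1* (0.23, adjusted p = 0.246).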

How the results depend on the processing

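Of 144 recomputed counts of changed members, 134 lay within 1.5 times the count reported. The 135 shares recomputed without 1 replicate all lay within 1 SD of theirs. That had to follow and is no support, since leaving out 1 of 3 samples cannot move a mean by 1 SD. Of the single fold changes 1333 kept their sign and side of the threshold, 37 lost the call, 21 gained it and 41 turned sign, of which 1 had been called (*Itpr2* between the LPS times). When samples were centred on their median gene, the counts were 2 for LPS 4 h against control, 1 for LPS 72 h against control (*Atp2b1*, lower), 2 for RANKL 4 h against LPS 4 h and 3 for LPS 72 h against LPS 4 h, and the signs that turned were those of *Atp2a2* (-0.18) and *Atp2b1* (-0.042) at RANKL 72 h against control, *Atp2a2* (0.46) and *Itpr2* (0.14) at LPS 4 h against control, *Atp2b1* (-0.011), *Itpr1* (-0.43) and *Itpr2* (-0.26) for RANKL 4 h against LPS 4 h, *Itpr2* (-0.013) for RANKL 72 h against LPS 72 h, *Atp2a2* (-0.073) and *Itpr1* (-0.085) between the RANKL times, and *Atp2a2* (-0.30), *Atp2b1* (-0.56), *Itpr1* (-0.074) and *Itpr2* (-0.0028) between the LPS times. With equal sums, *Stim1* turned at RANKL 72 h against control (0.022) and, with *Slc8a1*, between the RANKL times (0.069 and 0.045), and *Atp2a2* for RANKL 4 h against LPS 4 h (0.014), as it did there on fragments (0.0088) and with the stromal covariate (0.0016), which also turned it for RANKL 72 h against LPS 72 h (0.13). The stromal covariate gave 1 for LPS 72 h against control (*Atp2b1*), and the unadjusted p gave 1 for RANKL 4 h against control (*Itpr1*). Leaving out 1 replicate at a time gave 0 members at RANKL 4 h, 2 to 5 at RANKL 72 h (2 without RANKL 72 h replicate 3), 6 to 7 at LPS 4 h and 0 to 1 at LPS 72 h against control (1 without control replicate 1 or LPS 72 h replicate 1 or 2), 4 to 5 for RANKL 4 h against LPS 4 h and for RANKL 72 h against LPS 72 h, 2 to 4 between the RANKL times and 5 to 7 between the LPS times. Fold changes whose sign turned in this way ranged, at RANKL 4 h against control, from -0.21 to 0.13 for *Orai1*, -0.32 to 0.15 for *Itpr2*, -0.47 to 0.18 for *Itpr3*, -0.27 to 0.053 for *Atp2a2*, -0.31 to 0.042 for *Atp2b1* and -0.082 to 0.014 for *Stim1*. Against control they ranged from -0.13 to 0.15 for *Atp2a2* and -0.0088 to 0.30 for *Atp2b1* at RANKL 72 h, from -0.27 to 0.037 for *Atp2a2* at LPS 4 h and from -0.13 to 0.37 for *Itpr3* at LPS 72 h. For RANKL 4 h against LPS 4 h they ranged from -0.034 to 0.29 for *Itpr1* and -0.14 to 0.16 for *Atp2a2*, and between the RANKL times from -0.014 to 0.26 for *Atp2a2*. Apart from the centring, which shifts every gene of a sample alike, the cause of these differences was not tested. *Itpr1* at RANKL 72 h against control also lost its call with 1 as the added constant (-0.51) and with equal sums (-0.50). A filter at a mean of 1 FPKM removes *Calcr*.

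Over all genes, RANKL 4 h against control gave 13 higher and 1 lower, and 142 and 159 with the unadjusted p, 0 and 0 with only 2 groups in the fit, 3 and 0 without the trend, 8 and 2 without a filter, and 22 and 2 with the replicate block. Centring on the median gene turned 1951 higher and 886 lower at RANKL 72 h against control into 1167 and 1428, 990 and 4660 at LPS 4 h into 1871 and 1529, 4818 and 1054 for RANKL 4 h against LPS 4 h into 1580 and 1905, 2739 and 1506 for RANKL 72 h against LPS 72 h into 2237 and 2045, 1930 and 802 between the RANKL times into 1141 and 1351, and 5186 and 1631 between the LPS times into 2209 and 3224. The replicate block changed no count of members. In the other 3 comparisons the numbers did not pair the samples (correlations of -0.03 to 0.18 for LPS 72 h and control, -0.23 to -0.02 for RANKL 72 h and LPS 72 h, and -0.15 to 0.07 for the LPS times). Outside RANKL 72 h, *Calcr* had 0 to 3 fragments per library, at or below the floor, and no difference between those groups is detectable at this depth.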

Other observations

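Among the phospholipase C genes, *Plcb4* and *Plcg1*, chosen after their values were seen, were the other members of that list higher at RANKL 72 h than in control. *Plcb4*, which couples G protein receptors to IP3 production, had 1.70 against 0.217 FPKM (log2 fold change 2.40, adjusted p = 0.000176 from limma). *Plcg1*, which couples receptor tyrosine kinases to IP3 production, had a log2 fold change of 0.94 (adjusted p = 0.00818). *Tmem64*, a regulator of the SERCA pump, was also higher there (1.05, adjusted p = 0.000395).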
